A study of Mus musculus with 8 samples.

Results

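Genes of splicing factors and of heterogeneous nuclear ribonucleoproteins (hnRNPs) were examined in mouse macrophages loaded with lipoprotein. The 58 genes were chosen by their symbols in the platform annotation, out of 19938 genes that had a probe set with 1 symbol. Symbols beginning with Hnrnp gave 17 genes, Srsf 10, Prpf 12, Sf3a 3, Sf3b 6 and Snrp 10. Where a gene had several probe sets, the one with the highest mean over the 8 arrays was selected on that measured value, which takes no account of the groups. A further 6 symbols of the same form, Hnrnpa1, Hnrnpa1l2-ps2, Hnrnpa3, Hnrnph3, Snrpf and Snrpn, occurred only on probe sets that carry several symbols and were not analysed here.

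All cells were peritoneal macrophages of C57BL/6J mice, taken 5 days after thioglycollate, an irritant that draws monocytes into the cavity where they become macrophages. Of the 8 cultures, 4 received no lipoprotein (unloaded) and 4 received acetylated low-density lipoprotein (acLDL), which enters through scavenger receptors and delivers cholesterol. The exposure is not settled, because the sample protocols state 20 µg/mL for 3 days and the series text 50 µg/mL for 2 days. The submitters call the 4 arrays of a group biological replicates but do not say which mice went into which culture, so the p-values measure the spread between these cultures, whatever its source.

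Introns are removed from pre-mRNA by the spliceosome, which is built from small nuclear ribonucleoproteins (snRNPs). Most snRNPs join a small RNA to a ring of Sm proteins, encoded by some of the Snrp genes, and to proteins of their own. The SF3a and SF3b complexes belong to the U2 snRNP, which finds the branch point, and many PRPF proteins belong to the U4/U6.U5 tri-snRNP, which brings in the catalytic RNAs. SR proteins (Srsf genes) bind exons and mostly favour their inclusion, while hnRNPs coat nascent RNA and often act against them. Many SR and hnRNP genes also control their own transcripts through exons or introns that lead to decay.

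Values are log2 expression on the scale of robust multi-array averaging (RMA), and differences are acLDL minus unloaded. Array medians over all genes lay between 6.44 and 6.54, and the 8 arrays held no identical pair. Unloaded arrays 1 and 4 stood apart from the other 2 unloaded arrays on the second principal component, which held 18.0% of the variance. In the same arrays long genes read relatively high, with Spearman correlations of 0.23 and 0.21 between deviation and genomic span across 11627 genes, against -0.02 and -0.05 in unloaded arrays 2 and 3 and -0.20 to -0.01 in the acLDL arrays. All 10 macrophage markers lay above 6.12, the 95th percentile of olfactory receptor genes, which served as a gauge of background. Cd36, a scavenger receptor, read 12.87 ± 0.01 in unloaded and 12.93 ± 0.01 in acLDL arrays (log2, SD, n = 4).

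Most hnRNP genes and several SR protein genes were lower with acLDL. A few snRNP subunit genes were higher, but over the 58 genes rises were about as frequent as among all genes. Of the 58 genes 24 fell, 8 rose and 26 did not pass at an adjusted p under 0.05 (limma, Benjamini-Hochberg over all 19938 genes). The share that changed was 55.2%, against 23.3% of all genes tested, and 41.4% fell against 10.5% of all genes, while 13.8% rose against 12.9%. Of the 58 genes 57 lay above the background gauge, and among the 11653 genes above it 33.5% changed, 13.9% lower and 19.6% higher. The median log2 difference was -0.10 for the 58 genes and -0.00 for all genes. The 4 arrays of one group did not overlap those of the other in 35 of the 58 genes, or in 25.6% of all genes. Changes were modest. On the probe sets used, only Hnrnph2, Prpf39, Srsf3 and Srsf5 differed by at least 1.5-fold, all of them lower. The share of all genes that did so in either direction was 2.03%. Without unloaded arrays 1 and 4 the counts were 17 lower and 11 higher with a median of -0.06, and without unloaded arrays 2 and 3 they were 26 lower and 6 higher with a median of -0.14. Over all genes the first setting gave 2008 lower and 2559 higher (median -0.02), and the second 2238 lower and 2431 higher (median 0.02).

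**Figure D1:**
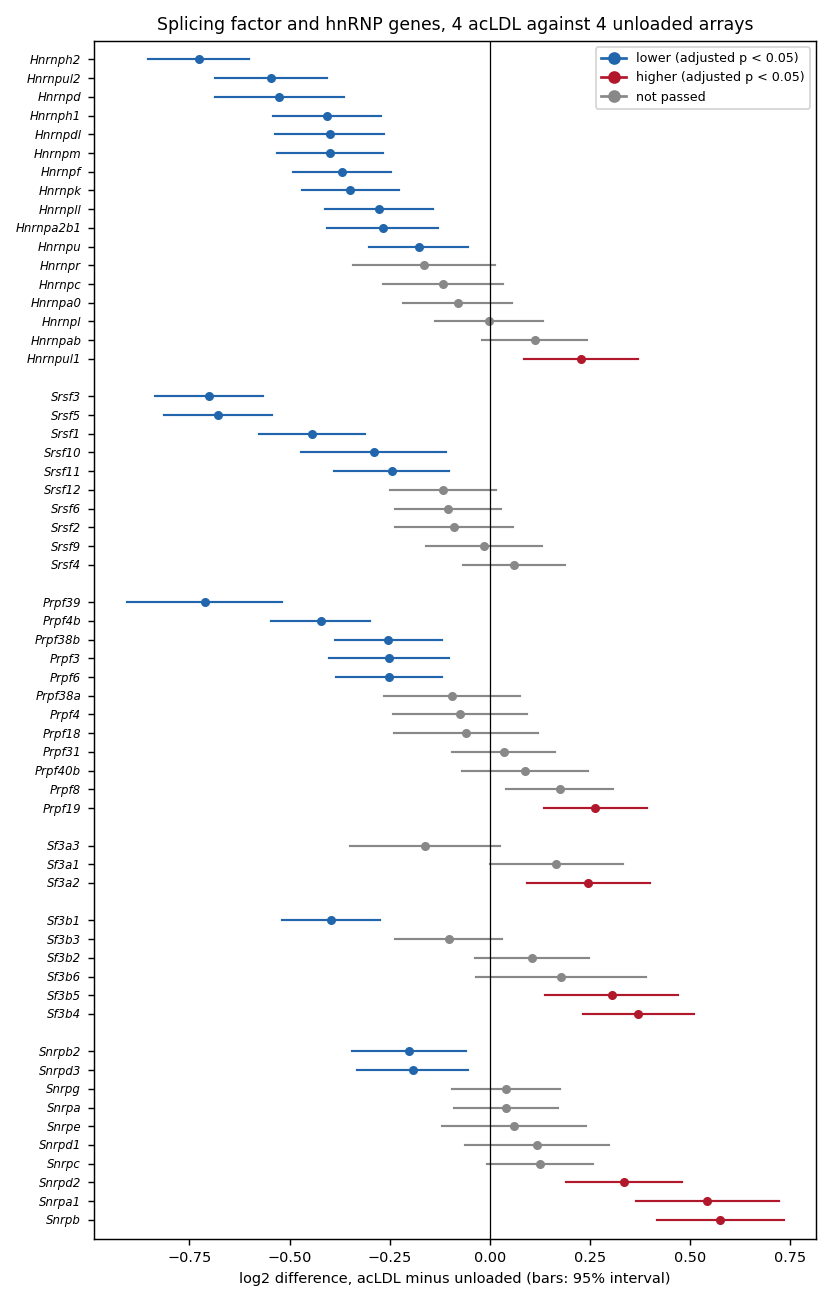
Log2 difference, acLDL minus unloaded, of each of the 58 genes (points, with 95% intervals from limma), arranged by symbol group. Blue points passed as lower, red points as higher and grey points did not pass; 11 of the 17 Hnrnp genes are blue, and the 3 highest points are Snrpb, Snrpa1 and Sf3b4 at 0.58, 0.54 and 0.37.

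Whole-culture RNA cannot tell fewer cells of a type from less RNA per cell, and RMA hides a change that all genes share. Of the 10 macrophage markers 5 were higher and 1 lower with acLDL. Of the markers of B cells, T and NK cells, neutrophils and dendritic cells that were measured, 1 of 5, 1 of 7, 1 of 7 and 2 of 6 lay above 6.12. Stromal markers were present, 6 of 8 above 6.12, and their summed linear level ran from 2552 to 3069 in unloaded and from 2516 to 2712 in acLDL arrays, with none of the 8 called. The sum of 9 eosinophil and mast cell markers ran from 605 to 652 in unloaded and from 508 to 536 in acLDL arrays, and that of 7 neutrophil markers from 335 to 361 and from 316 to 332. Siglecf led the former sum, at 7.97 ± 0.13 and 7.37 ± 0.09 (log2, SD, n = 4), while Epx and Prg2, which define eosinophils, lay below the gauge. Pf4, of platelets and also of macrophages, led 3 red cell and platelet markers, whose sum ran from 238 to 262 and from 290 to 317. Of the neutrophil markers 6 of 7, and of the eosinophil and mast cell markers 7 of 9, lay at or below 6.12. The median over olfactory receptor genes ran from 4.43 to 4.51 in unloaded and from 4.36 to 4.41 in acLDL arrays. The part of the background in these sums, and of these cell types in the results below, was not tested.

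The start sites of the genes that moved furthest are shown to set the changes beside the sequence at which transcription begins. A 300-base window, 250 before and 50 after the start, was held for 51 of the 58 genes in the RefSeq table (GRCm38.p6). The lines below give the windows of the 2 genes with the largest falls and the 2 with the largest rises among those 51. Hnrnph2 lies at chrX:134600929-134601228 and Prpf39 at chr12:65036084-65036383. Snrpa1 lies at chr7:66060086-66060385 and Snrpd2 at chr7:19149588-19149887, all on the plus strand. Capitals mark matches on either strand to 7 motifs: the TATA box TATAAA, the box named CCAAT, the GC box GGGCGG, the ETS factor motif CCGGAAG, the NRF1 motif GCATGCGC, the E-box CACGTG and the cyclic AMP response element TGACGTCA.

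Hnrnph2: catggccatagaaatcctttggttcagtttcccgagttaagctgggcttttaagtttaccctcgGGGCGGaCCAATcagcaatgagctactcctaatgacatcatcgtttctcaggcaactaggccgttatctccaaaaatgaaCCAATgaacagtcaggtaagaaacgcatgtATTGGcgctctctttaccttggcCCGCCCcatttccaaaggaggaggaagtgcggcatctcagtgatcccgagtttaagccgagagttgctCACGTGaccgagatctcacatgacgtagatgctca
Prpf39: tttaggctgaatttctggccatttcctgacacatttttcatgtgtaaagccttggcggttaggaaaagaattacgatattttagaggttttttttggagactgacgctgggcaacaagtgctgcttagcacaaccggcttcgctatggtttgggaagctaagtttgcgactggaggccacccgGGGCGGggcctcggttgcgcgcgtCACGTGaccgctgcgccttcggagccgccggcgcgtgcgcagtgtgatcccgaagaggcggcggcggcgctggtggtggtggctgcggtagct
Snrpa1: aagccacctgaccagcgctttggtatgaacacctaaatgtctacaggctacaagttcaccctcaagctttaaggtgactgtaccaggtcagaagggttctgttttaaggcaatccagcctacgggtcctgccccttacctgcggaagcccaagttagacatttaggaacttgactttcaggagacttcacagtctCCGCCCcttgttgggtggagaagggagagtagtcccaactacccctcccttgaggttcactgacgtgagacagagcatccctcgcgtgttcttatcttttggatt
Snrpd2: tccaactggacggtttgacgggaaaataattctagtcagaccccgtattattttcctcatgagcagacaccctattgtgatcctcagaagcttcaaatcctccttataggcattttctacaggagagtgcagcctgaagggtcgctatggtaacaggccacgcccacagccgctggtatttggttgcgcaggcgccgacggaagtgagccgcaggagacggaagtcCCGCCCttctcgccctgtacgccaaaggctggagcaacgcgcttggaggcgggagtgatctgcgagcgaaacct

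All 4 windows held a GC box, 2 in Hnrnph2 and 1 in each of the others. Hnrnph2 and Prpf39 also held 1 E-box each and Hnrnph2 3 CCAAT boxes, while Snrpa1 and Snrpd2 held no other motif searched. Across the 51 windows the E-box was in 5 of 22 genes that fell, 0 of 5 that rose and 2 of 24 that did not pass, and in 8.40% of the 15563 windows of tested genes. The ETS motif was in 18 of the 51 windows (35.3%) and in 12.5% of windows of tested genes, and it stood in 7 of the 22 that fell and 2 of the 5 that rose. GC boxes were in 66.7% of the 51 and 49.9% of tested genes, CCAAT in 47.1% and 38.3%, TATA boxes in 11.8% and 12.1%, the cyclic AMP element in 2 of 51 and 2.50%, and the NRF1 motif in 0 of 51 and 3.91%. The 51 windows were richer in CG dinucleotides, with a median of 25 against 15 for tested genes, and the part of base composition in these shares was not tested.

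The hnRNP genes fell most widely. Among the 17, 11 fell, 1 rose and 5 stayed short of the threshold, and the median log2 difference was -0.28. The shares were 64.7% lower and 5.88% higher, beside 13.9% and 19.6% of all genes above the background gauge. Hnrnph2, whose product binds runs of G near splice sites, read 10.18, 10.11, 10.08 and 10.11 in unloaded arrays 1 to 4 and 9.35, 9.38, 9.46 and 9.39 in acLDL arrays 1 to 4. All acLDL arrays lay well below all unloaded arrays, and the level was 60.4% of unloaded (log2 difference -0.73 ± 0.06 SE, limma adjusted p = 2.35e-06). Its paralogue Hnrnph1 went from 10.46 ± 0.09 to 10.05 ± 0.03 (log2, SD, n = 4), a fall by 0.41 (adjusted p = 0.000401). Hnrnpf, the third member of that family, fell by 0.37, from 12.06 ± 0.02 to 11.69 ± 0.04 (log2, SD, n = 4).

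Hnrnpul2, an hnRNP U-like protein gene, read 10.38, 10.23, 10.30 and 10.43 in unloaded and 9.78, 9.79, 9.73 and 9.87 in acLDL arrays. These groups did not overlap, and the difference was -0.55 ± 0.07 (log2, SE, limma adjusted p = 5.38e-05). Hnrnpd encodes AUF1, which binds AU-rich elements and guides mRNA decay. It read 10.08, 10.09, 10.09 and 10.23 in unloaded and 9.41, 9.58, 9.68 and 9.72 in acLDL arrays. Unloaded array 4 was the high one and acLDL array 1 the low one, and the difference of -0.53 ± 0.08 (SE, adjusted p = 0.000213) left a gap between the groups. Its paralogue Hnrnpdl fell by 0.40, to 75.8% of unloaded.

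Hnrnpm, a splicing regulator, fell by 0.40, and Hnrnpk, which binds C-rich RNA, fell by 0.35 (log2). Smaller falls were those of Hnrnpll, known for exon skipping in the Ptprc transcript of T cells, by 0.28, and of Hnrnpa2b1, an abundant core hnRNP, by 0.27. Hnrnpu, a nuclear scaffold protein gene, fell by 0.18 (log2; limma adjusted p = 0.0385), and it did not pass when any array other than unloaded array 3 was left out (adjusted p from 0.0600 to 0.102). The groups of 4 arrays did not overlap in any of the 11 genes that fell, which the contrast that chose them favours.

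The member that rose was Hnrnpul1, the paralogue of Hnrnpul2. Hnrnpul1 read 9.27, 9.09, 9.15 and 9.22 in unloaded and 9.49, 9.46, 9.33 and 9.37 in acLDL arrays, a difference of 0.23 ± 0.07 (log2, SE, adjusted p = 0.0225). The arrays did not overlap. Leaving out unloaded array 2 ended the call (limma adjusted p = 0.0660), as did leaving out acLDL array 1 or 2 (0.0730 and 0.0657). Hnrnpr, Hnrnpc, Hnrnpa0, Hnrnpl and Hnrnpab did not pass, with differences from -0.16 to 0.11. For Hnrnpl, whose product binds CA repeats, the difference was -0.00 with a 95% interval from -0.14 to 0.13.

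**Figure D2:**
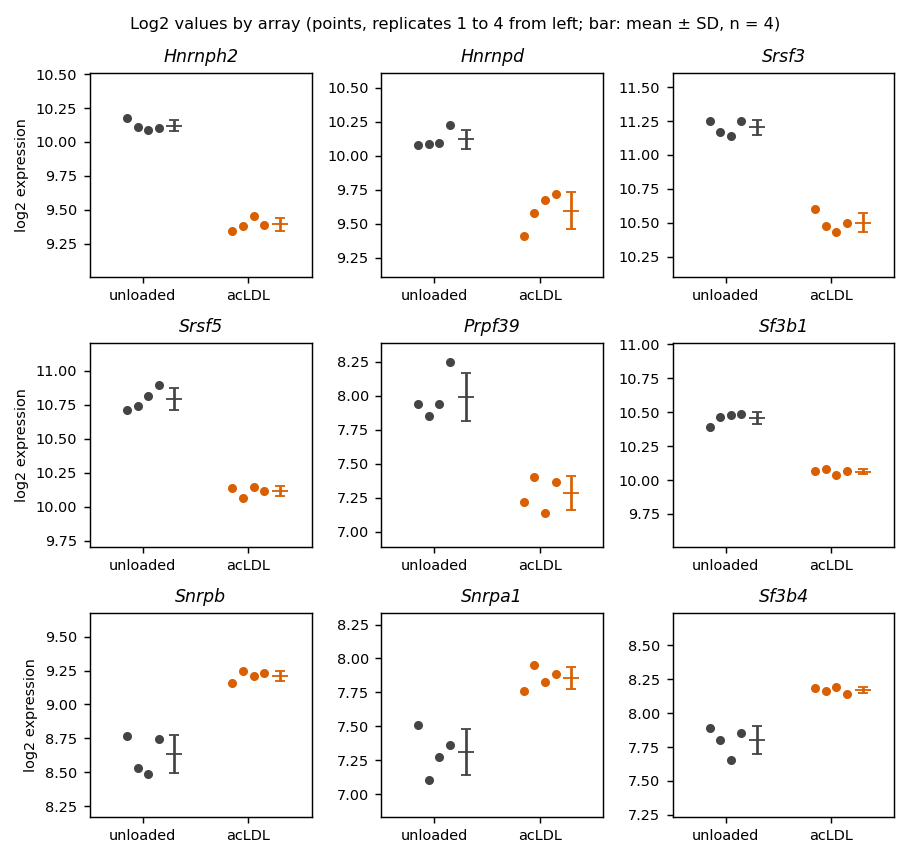
Log2 expression on each of the 4 unloaded (grey) and 4 acLDL (orange) arrays for 9 genes, with mean ± SD beside the points; every panel spans the same height on the log2 axis. In all 9 genes the acLDL points lie apart from the unloaded points, below them in Hnrnph2, Hnrnpd, Srsf3, Srsf5, Prpf39 and Sf3b1 and above them in Snrpb, Snrpa1 and Sf3b4.

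Among the SR protein genes 5 of 10 fell, 0 rose and 5 did not pass, with a median log2 difference of -0.18. Thus 50% were lower and 0% higher, beside 13.9% and 19.6% of all genes above the background gauge. Srsf3, the smallest SR protein and also an adaptor of mRNA export, read 11.25, 11.17, 11.14 and 11.25 in unloaded and 10.60, 10.47, 10.43 and 10.50 in acLDL arrays. The groups were far apart, and the level with acLDL was 61.5% of unloaded (log2 difference -0.70 ± 0.06 SE, limma adjusted p = 5.57e-06). This holds for the probe set used. The other probe sets of Srsf3 gave -0.57 ± 0.07 and -0.11 ± 0.11 (log2, SE), and the latter did not pass. Srsf5 read 10.72, 10.74, 10.82 and 10.90 in unloaded and 10.14, 10.06, 10.14 and 10.12 in acLDL arrays. Here the acLDL arrays were nearly level, and the difference was -0.68 ± 0.06 (SE, adjusted p = 6.82e-06).

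Srsf1, which encodes the long-studied factor SF2/ASF, read 9.43, 9.35, 9.39 and 9.49 in unloaded and 8.91, 9.04, 8.94 and 9.0 in acLDL arrays. It was lower in each acLDL array than in any unloaded array, by 0.44 ± 0.06 on average (log2, SE, adjusted p = 0.000177). Srsf10, a factor that represses splicing when dephosphorylated, fell by 0.29, and unloaded array 2 at 9.50 lay below acLDL array 2 at 9.53, so that its groups overlapped. Srsf11 fell by 0.24 without overlap. The calls of Srsf10 and Srsf11 were both lost without unloaded array 4 (limma adjusted p = 0.0736 and 0.0564) and without acLDL array 3 (0.0720 and 0.0529), and the group count was then 3. Srsf10 was also lost without unloaded array 1 (0.0567) or with the mean of its probe sets (0.0808), and Srsf11 without acLDL array 1 (0.0508).

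Srsf2, Srsf4, Srsf6, Srsf9 and Srsf12 did not pass. For Srsf2, which encodes SC35, the difference was -0.09 with a 95% interval from -0.24 to 0.06, and for Srsf4 it was 0.06 with an interval from -0.07 to 0.19. Srsf12 read between 5.14 and 5.39 on all 8 arrays and was the only one of the 58 genes at or below the background gauge. Its difference was -0.12.

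Of the 12 Prpf genes 5 fell, 1 rose and 6 did not pass, and the median log2 difference was -0.08. This made 41.7% lower and 8.33% higher, beside 13.9% and 19.6% of all genes above the background gauge. Prpf39, an alternative splicing factor associated with the U1 snRNP, read 7.94, 7.85, 7.94 and 8.25 in unloaded and 7.22, 7.40, 7.14 and 7.37 in acLDL arrays. Unloaded array 4 was the highest, yet the lowest unloaded array stayed above every acLDL array, and the level was 61.0% of unloaded (log2 difference -0.71 ± 0.09 SE, limma adjusted p = 8.61e-05). Prpf4b, a kinase that phosphorylates tri-snRNP proteins, read 9.08, 9.10, 9.08 and 9.06 in unloaded and 8.61, 8.72, 8.63 and 8.68 in acLDL arrays. Its unloaded arrays were nearly equal, and the difference was -0.42 ± 0.06 (SE, adjusted p = 0.000152).

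Prpf38b fell by 0.25 (log2), as did Prpf3 and Prpf6, both subunits of the tri-snRNP. Prpf3 did not pass without unloaded array 4 or acLDL array 1 or 3 (limma adjusted p = 0.0590, 0.0582 and 0.0530). Their tri-snRNP partners Prpf4 and Prpf31 did not pass, with differences of -0.08 and 0.03. Prpf8, the large protein at the catalytic centre, was 0.17 ± 0.06 higher (log2, SE) and narrowly missed the threshold (limma adjusted p = 0.0562), although its arrays did not overlap. In 8 of 20 alternative settings Prpf8 did pass, with adjusted p from 0.0166 to 0.0488, among them the one without unloaded array 1 (0.0368). Prpf19, the ubiquitin ligase of the complex that activates the spliceosome, read 8.88, 8.95, 8.92 and 8.91 in unloaded and 9.12, 9.22, 9.12 and 9.25 in acLDL arrays. All acLDL arrays were above all unloaded arrays, by 0.26 ± 0.06 (SE, adjusted p = 0.00574).

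The subunits of the SF3a and SF3b complexes went different ways. In SF3a 1 of 3 genes rose and 0 fell, and in SF3b 2 of 6 rose and 1 fell, with medians of 0.17 and 0.14. These are few genes, and of all genes above the background gauge 19.6% rose and 13.9% fell. Sf3b1, the subunit that clamps the branch point and the largest of the complex, read 10.39, 10.47, 10.48 and 10.49 in unloaded and 10.06, 10.08, 10.03 and 10.07 in acLDL arrays. The acLDL arrays were tightly placed below the unloaded ones (log2 difference -0.40 ± 0.06 SE, limma adjusted p = 0.000230).

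Sf3b4, a small RNA-binding subunit, read 7.89, 7.81, 7.66 and 7.85 in unloaded and 8.19, 8.16, 8.19 and 8.14 in acLDL arrays. It was 1.29-fold higher with no overlap (log2 difference 0.37 ± 0.07 SE, adjusted p = 0.000958). Sf3b5, the gene of another small subunit, read 7.22, 7.32, 7.32 and 7.04 in unloaded and 7.66, 7.53, 7.44 and 7.50 in acLDL arrays, 0.30 ± 0.08 higher (SE, adjusted p = 0.0110). Sf3b2, Sf3b3 and Sf3b6 did not pass, at 0.11, -0.10 and 0.18. In SF3a, Sf3a2 was 1.19-fold higher (log2 difference 0.25 ± 0.07 SE, limma adjusted p = 0.0221). It did not pass once unloaded array 2 (adjusted p = 0.0668) or acLDL array 2 or 4 (0.0572 and 0.0720) was left out, or after removal of the trend with span (0.0501). Sf3a1 and Sf3a3 did not pass, at 0.17 and -0.16, although Sf3a1 did without unloaded array 1 (limma adjusted p = 0.0441).

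Among the snRNP subunit genes 3 of 10 rose, 2 fell and 5 did not pass, and the median log2 difference was 0.09. Of all genes above the background gauge 19.6% rose and 13.9% fell. Snrpb, which encodes the Sm proteins B and B', had the largest rise of the 58 genes. It read 8.77, 8.53, 8.49 and 8.75 in unloaded and 9.16, 9.24, 9.21 and 9.23 in acLDL arrays. The unloaded arrays spread more than the acLDL arrays, and the groups were clearly apart at 1.49-fold (log2 difference 0.58 ± 0.07 SE, limma adjusted p = 8.98e-05).

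Snrpa1, the A' protein of the U2 snRNP, read 7.51, 7.10, 7.28 and 7.36 in unloaded and 7.76, 7.95, 7.83 and 7.88 in acLDL arrays. It was 1.46-fold higher without overlap (log2 difference 0.54 ± 0.08 SE, adjusted p = 0.000368). Snrpd2, an Sm ring protein, read 8.37, 8.24, 8.25 and 8.28 in unloaded and 8.52, 8.61, 8.59 and 8.77 in acLDL arrays, a rise by 0.34 ± 0.07 (SE, adjusted p = 0.00261). The other Sm ring genes Snrpd1, Snrpe and Snrpg did not pass, with differences of 0.12, 0.06 and 0.04, nor did the U1 genes Snrpa and Snrpc, at 0.04 and 0.13.

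Snrpb2, the B'' protein that pairs with the Snrpa1 product on U2, fell by 0.20 ± 0.07 (log2, SE, limma adjusted p = 0.0408). Snrpd3, which lies beside Sm B in the ring, fell by 0.19 ± 0.07 (adjusted p = 0.0451). The arrays of either gene did not overlap between the groups. The 2 falls were the least certain of the snRNP group, and 0 of the 2 passed without unloaded array 1 or 4, without acLDL array 1, 2 or 4, with either centring of the arrays, or without both unloaded arrays 1 and 4. Snrpd3 also failed to pass without unloaded array 3 or acLDL array 3 (limma adjusted p = 0.0505 and 0.121).

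**Figure D3:**
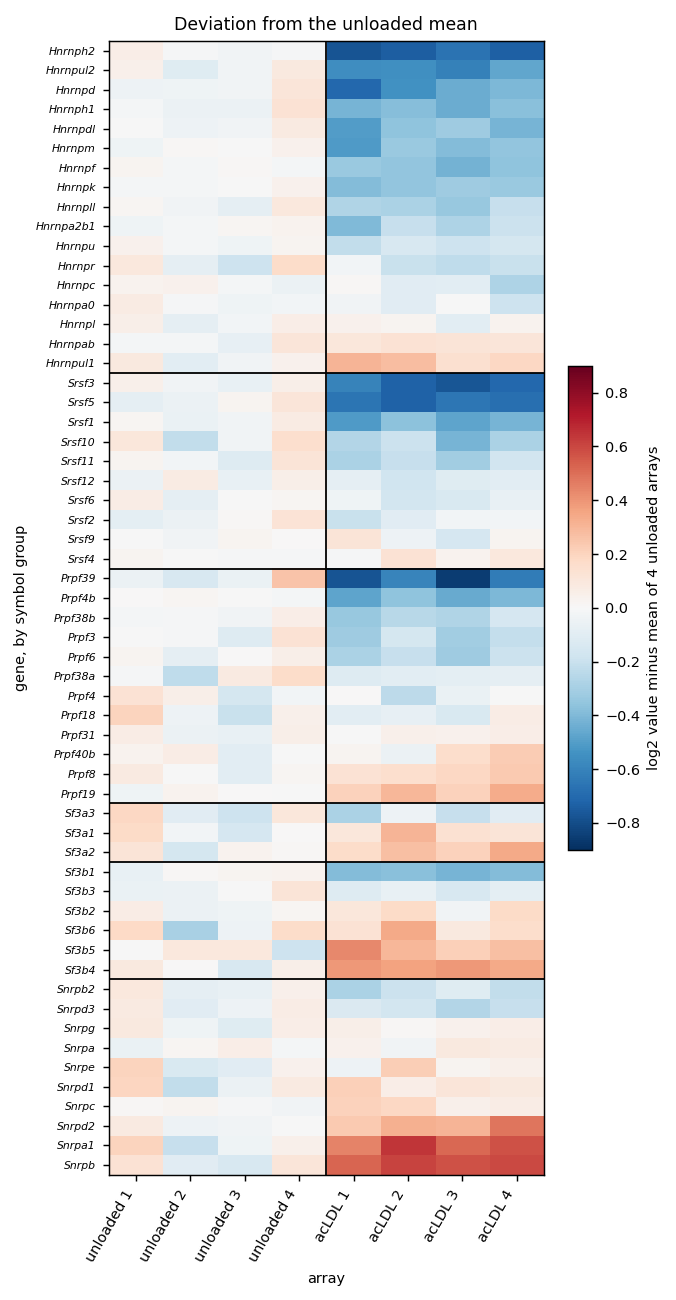
Log2 value of each of the 58 genes (rows, by symbol group, black lines between groups) on each of the 8 arrays (columns), as the deviation from the mean of the 4 unloaded arrays. Blue cells are lower and red cells higher; the top Hnrnp, Srsf and Prpf rows and Sf3b1 are blue in all 4 acLDL columns, and the last Snrp rows are red there.

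Over all 58 genes the median deviation from the unloaded mean was 0.03, -0.04, -0.03 and 0.05 in unloaded arrays 1 to 4 and -0.09, -0.10, -0.12 and -0.09 in acLDL arrays 1 to 4, so that the unloaded arrays spread over nearly as much as the median difference of -0.10. The median deviation over the 24 genes that fell was 0.01, -0.03, -0.03 and 0.06 in unloaded arrays 1 to 4 and -0.40, -0.35, -0.40 and -0.36 in acLDL arrays 1 to 4. Over the 8 genes that rose it was 0.09, -0.07, -0.03 and 0.03 in unloaded and 0.35, 0.31, 0.26 and 0.34 in acLDL arrays. These genes were sorted by the same contrast, which also favours genes with a small spread within groups, so the size of the gap is a description. Among unloaded arrays, the highest value of a gene was on array 1 in 25 and on array 4 in 24 of the 58 genes, and on arrays 2 and 3 in 6 and 3. Genes that fell had a median genomic span of 16071 bases and those that rose 6968 bases (22155 and 15158 among all genes). Across the 58 genes the Spearman correlation of span with the difference was -0.22, as a description of genes that share the arrays. After removal of the trend with span 24 fell and 8 rose, with Sf3a2 no longer among the rises (limma adjusted p = 0.0501) and Prpf8 now among them (0.0442).

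Genes read by several probe sets gave a second reading under the same symbol, and the genomic position of each probe set was not examined. Such genes numbered 10 of the 58, with 18 further probe sets that the main counts did not use. All 18 had the sign of the probe set used, and 14 passed in the fit of all annotated probe sets. They list the same mRNA accessions, so they may read overlapping or near-identical sequence and are not independent. The 3 further probe sets of Hnrnpf fell by 0.37, 0.39 and 0.41, the other 2 of Hnrnpk fell by 0.45 and 0.37, and the 4 of Snrpd2 gave 0.34, 0.46, 0.25 and 0.28 (log2).

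The probe sets of Srsf3 and of Snrpg did not match each other in size. Srsf3 was represented by probe set 10501661 at -0.70, while 10424379 gave -0.57 and 10443459 gave -0.11 ± 0.11 (log2, SE) from an unloaded level of 6.88, which did not pass. For Snrpg the probe set used gave 0.04 ± 0.06 (SE), while 10449242, with an unloaded level of 6.66, gave 0.57 ± 0.13 (SE) and passed. For Srsf10 the other probe set, with an unloaded level of 6.1, gave -0.19 ± 0.11 (SE) and did not pass. Both probe sets of Srsf5 fell alike, at -0.68 and -0.69.

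**Figure D4:**
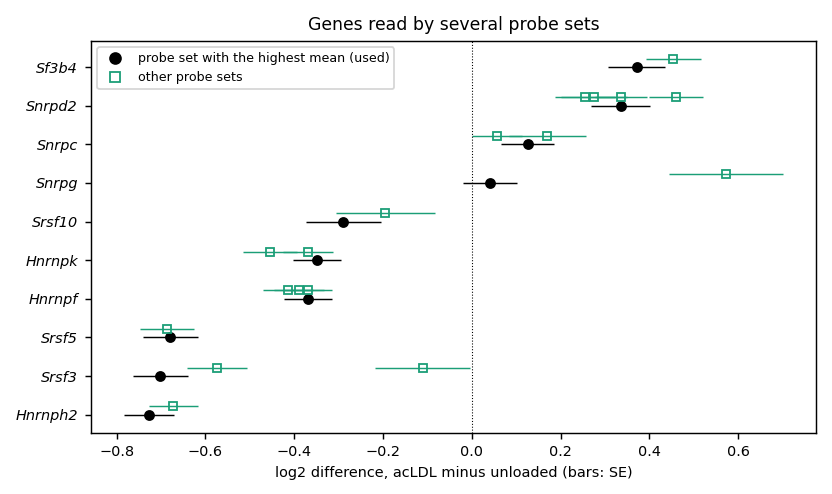
Log2 difference, acLDL minus unloaded (points, with SE), for every probe set of the 10 genes that have more than 1. Black circles are the probe sets with the highest mean and green squares the others; squares lie close to the circles except for the Srsf3 probe set at -0.11 and the second Snrpg probe set at 0.57.

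Other genes of the splicing machinery, taken from 5 lists written with earlier results of these data known, moved in both directions. Of 150 listed genes 137 were measured, and 32 fell, 19 rose and 86 did not pass, with a median log2 difference of -0.04. The share called was 37.2%, beside 33.5% of all genes above the background gauge. Without unloaded arrays 1 and 4 the counts were 23 lower and 26 higher, so the more frequent direction was the other one in this setting. Over all genes the same setting gave 2008 lower and 2559 higher, against 2085 and 2565 with every array. When single arrays were left out, 25 to 33 of the listed genes fell and 14 to 20 rose. The reason for these differences between settings was not tested.

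The kinases that phosphorylate SR proteins fell in part, with 3 of 9 genes of the list of SR kinases and nuclear import lower and 0 higher. The share called was 33.3%, all lower, beside 33.5% called and 13.9% lower among all genes above the background gauge. Clk4, of the CLK family that acts in the nucleus, read 9.38, 9.28, 9.40 and 9.47 in unloaded and 8.42, 8.66, 8.39 and 8.56 in acLDL arrays. This was 1.84-fold lower with no overlap (log2 difference -0.88 ± 0.07 SE, limma adjusted p = 3.18e-06). Clk1 read 10.22, 10.27, 10.32 and 10.26 in unloaded and 9.39, 9.63, 9.54 and 9.62 in acLDL arrays, a fall by 0.72 ± 0.07 (SE, adjusted p = 7.71e-06). Clk3 fell by 0.26, and the cytoplasmic SR kinase genes Srpk1 and Srpk2 did not pass, at -0.07 and -0.10. The median of the 9 genes was -0.12.

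Genes of the LSm ring, which binds U6 RNA, and of snRNP assembly mostly did not pass, and those that did were more often higher. Here 7 of 25 genes rose, 1 fell and 17 stayed short of the threshold, and the median log2 difference was 0.10. The share that rose was 28%, beside 19.6% of all genes above the background gauge. Lsm3 and Lsm4, subunits of the ring, rose by 0.60 ± 0.06 and 0.56 ± 0.07 (SE; limma adjusted p = 2.16e-05 and 4.76e-05). The member that fell was Lsm8, the subunit that sets the nuclear ring apart, by 0.48 ± 0.07 (adjusted p = 0.000377).

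Other spliceosome subunits had 14 of 45 lower, 7 higher and 24 that did not pass, with a median of -0.05. Here 46.7% were called, 31.1% lower and 15.6% higher. Among all genes above the background gauge 33.5% were called, 13.9% lower and 19.6% higher. Luc7l3, linked to the U1 snRNP, and Snrnp48, of the minor spliceosome, fell by 0.60 and 0.52 (log2). Snrnp25, also of the minor spliceosome, and Snu13, which binds U4 RNA and box C/D RNAs, rose by 0.41 and 0.40. Of 47 other splicing regulators 11 fell, 3 rose and 33 did not pass, with a median of -0.07. For these regulators 29.8% were called, 23.4% lower and 6.38% higher. Fubp1 and Ptbp2, the latter a polypyrimidine tract binding protein, fell by 0.44 and 0.41, and Elavl1, which encodes HuR, and Khsrp rose by 0.36 and 0.34.

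Exon junction complex and mRNA surveillance genes numbered 11 measured, of which 3 fell, 2 rose and 6 did not pass, with a median of -0.01. This made 45.5% called, 27.3% lower and 18.2% higher. Beside these few genes, 33.5% of all genes above the background gauge were called, 13.9% lower and 19.6% higher. Rbm8a, which encodes the core protein Y14, fell by 0.37, and Eif4a3, the core helicase, rose by 0.54 ± 0.11 (log2, SE, limma adjusted p = 0.00214). Upf2, of nonsense-mediated decay, fell by 0.26, and Sap18 rose by 0.39.

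**Figure D5:**
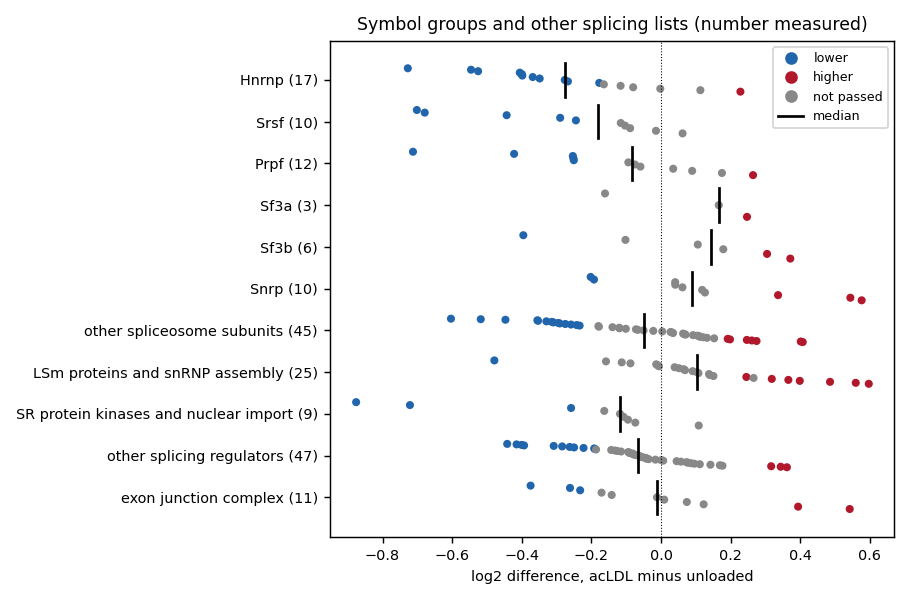
Log2 difference, acLDL minus unloaded, of each gene (points) in the 6 symbol groups and the 5 other splicing lists, with the number measured in brackets and the median as a black bar. Blue points passed as lower, red as higher and grey did not pass; the medians run from -0.28 for Hnrnp to 0.17 for Sf3a, and 7 of the 25 LSm and assembly genes are red.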

How the data were processed

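RNA of 8 macrophage cultures was measured on Affymetrix arrays, 4 unloaded and 4 with acLDL. The authors deposited log2 expression, made with RMA per the submitters' processing notes (version and settings: not given in the sources used here). GEO's platform annotation listed 23410 of 35557 probe sets, 21789 of them with 1 symbol, and left 12147 unnamed. Updating symbols through Entrez identifiers with the RefSeq table of GRCm38.p6, which held 21698 of the 21789, changed 0 symbols.

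The difference, acLDL minus unloaded, was fitted across 19938 genes by a two-sided limma test without a block (version 3.58.1, R 4.3.3), with Benjamini-Hochberg adjustment and a threshold of 0.05. The fit was tested on simulated data. The number of arrays limits the precision, and the median standard error was 0.074. Genes, lists and alternatives were chosen with earlier results of these data known. In each symbol group the rule named up to 4 rises and 4 falls and the brightest and dimmest member, and in each other splicing list up to 2 rises and 2 falls. Clk3, Srpk1, Srpk2, Epx, Prg2 and single members of a group beyond the rule were named after their values were seen. Promoter windows were the first entry of each gene in the table. Figures were drawn with matplotlib 3.10.9.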

Additional observations from a re-analysis of the deposited data

Results flagged for a closer look

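Of 116 groups of 4 arrays, 2 for each of the 58 genes, 4 held an array far from the other 3 by Dixon's criterion at the 95% level, and chance alone flags about 1 in 20 groups. Hnrnpd read 10.23 on unloaded array 4, where the nearest of the others was 10.09. Hnrnpr read 7.79 on acLDL array 1, with the nearest at 7.62. Hnrnpl read 10.04 on acLDL array 3, with the nearest at 10.16. Sf3a1 read 7.98 on acLDL array 2, with the nearest at 7.80. The fall of Hnrnpd passed in each of the 20 alternative settings, and the other 3 genes did not pass in the main comparison.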

How the results depend on the processing

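Over 20 alternatives the number of the 58 genes that fell ran from 17 to 26 and the number that rose from 6 to 11, the median log2 difference ran from -0.14 to -0.06, and 0 called genes changed sign. Of the 24 falls 17, and of the 8 rises 5, passed in every alternative. When single arrays were left out, 18 to 23 fell and 6 to 10 rose. Over all genes 1599 to 2045 fell and 2019 to 2594 rose in these settings, against 2085 and 2565 with all 8 arrays. The falls lost in 1 or more settings were Hnrnpu, Snrpd3, Snrpb2, Srsf10, Srsf11, Prpf3 and Prpf6, with adjusted p of up to 0.188, 0.227, 0.211, 0.190, 0.103, 0.0965 and 0.0511. The rises lost were Hnrnpul1, Sf3a2 and Sf3b5, with adjusted p of up to 0.128, 0.0996 and 0.0701. Genes that passed only in some alternatives were Prpf8, Hnrnpr, Sf3a1, Sf3a3, Sf3b6, Snrpd1 and Snrpg, the last at 0.31 with the mean of its probe sets. Without unloaded arrays 1 and 4, 3 of 12 Prpf genes and 3 of 10 Srsf genes fell. Srsf3 gave -0.46 with the mean of its probe sets. Centring each array on its median over all deposited probe sets, added after seeing the data, gave 18 falls and 8 rises, and turned the split over all genes from 2565 higher and 2085 lower to 2802 higher and 1390 lower; centring over the tested genes gave 21 falls and 6 rises. The other splicing genes ran from 23 to 38 lower and from 13 to 26 higher.

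With the replicate number as a block 22 genes fell and 8 rose, and Hnrnpu and Snrpb2 no longer passed (limma adjusted p = 0.0582 and 0.0623). Same-numbered arrays deviated together with correlations of 0.11, -0.16, 0.30 and 0.14, so the numbers were not taken to pair the cultures. Small differences of dim genes such as Srsf12 are limited by the background of the arrays.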
